A study of Mus musculus with 4 samples.

Results

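Very long genes, here the 215 autosomal protein-coding genes whose annotated body spans 500 kb or more, were examined for H3K9me3, trimethylation of lysine 9 on histone H3. Chromatin immunoprecipitation and sequencing had been done on mouse CD8+ T cells of C57BL/6 background, either wild-type (WT, called littermate in the series title) or Suv39h1-KO (KO). Suv39h1 encodes a histone methyltransferase that writes this mark. Both cultures had received anti-CD3 and anti-CD28 and the cytokine IL-2 over 3 days. Each genotype had 1 H3K9me3 library and 1 input library. The deposited result for each H3K9me3 library was a list of islands, stretches of the genome in which read windows stood above background. The labels give no age and do not say whether Suv39h1 was lost in all tissues. The identity of the cells was not checked, since islands do not measure expression. Of 12368 autosomal islands in WT, 802 lay wholly inside a very long gene, and of 25409 in KO, 2631 did. They were chosen by position and gene length alone, and islands that cross the edge of a gene are not among them. Since each genotype is 1 library, genotypes are compared by size only, without a p-value.

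H3K9me3 marks constitutive heterochromatin, the compact and silent part of the genome near centromeres and over repeats. It is bound by HP1 proteins, which recruit further methyltransferases, so that the mark can spread. In T cells it also lies over genes of other lineages. Very long genes consist almost wholly of introns, tend to lie where genes are sparse, and include many genes of neurons, whose products sit in the synapse or guide axons.

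The places where islands met a listed transcription start are shown first, since there the sequence under an island can be printed. A RefSeq table (GRCm38.p6, the assembly that mm10 names) listed 271 starts for 169 of these genes. The 250 bases upstream of a start lay fully under a WT island in 13 cases and fully under a KO island in 14, and 1 of these was shared. Starts covered in a single library also prevailed in shorter genes, with 418 in WT only, 472 in KO only and 184 in both. Among all 20084 autosomal starts listed for protein-coding genes the shares were 3.09% in WT and 3.36% in KO, and for very long genes 4.80% and 5.17%. All 12 starts covered in WT alone lay within 5 kb of the outer edge of the gene, but they belong to 10 genes, since Macrod2 and Fstl5 each have a pair of starts under the same island. Of the 13 covered in KO alone, which belong to 12 genes, 7 lay deeper inside. Examples of covered starts are printed here, 5′ to 3′ on the strand of the gene, with every CpG in capitals. The Macrod2 sequence lay under a WT island only, that of Pde4b under islands of both libraries, and those of Dab1, Ctnna3 and Lama2 under KO islands only.
Macrod2, outer start, chr2:140395180-140395429, plus strand: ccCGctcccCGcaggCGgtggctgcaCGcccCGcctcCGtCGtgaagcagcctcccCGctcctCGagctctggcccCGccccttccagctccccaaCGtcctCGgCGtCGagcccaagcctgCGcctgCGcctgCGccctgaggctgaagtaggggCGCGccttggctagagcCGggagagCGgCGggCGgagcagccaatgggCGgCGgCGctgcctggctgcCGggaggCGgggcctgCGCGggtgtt
Pde4b, internal start, chr4:102421305-102421554, plus strand: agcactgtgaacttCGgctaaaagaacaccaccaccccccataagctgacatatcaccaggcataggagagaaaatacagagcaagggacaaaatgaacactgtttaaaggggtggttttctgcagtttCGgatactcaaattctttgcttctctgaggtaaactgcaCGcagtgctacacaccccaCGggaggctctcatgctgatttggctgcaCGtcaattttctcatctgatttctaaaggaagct
Dab1, internal start, chr4:104367288-104367537, plus strand: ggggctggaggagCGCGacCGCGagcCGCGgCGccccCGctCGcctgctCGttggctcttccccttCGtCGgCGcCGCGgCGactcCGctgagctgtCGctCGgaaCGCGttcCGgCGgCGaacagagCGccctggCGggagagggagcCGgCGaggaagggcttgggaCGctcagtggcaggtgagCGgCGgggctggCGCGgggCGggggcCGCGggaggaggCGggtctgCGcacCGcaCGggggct
Ctnna3, internal start, chr10:63820805-63821054, plus strand: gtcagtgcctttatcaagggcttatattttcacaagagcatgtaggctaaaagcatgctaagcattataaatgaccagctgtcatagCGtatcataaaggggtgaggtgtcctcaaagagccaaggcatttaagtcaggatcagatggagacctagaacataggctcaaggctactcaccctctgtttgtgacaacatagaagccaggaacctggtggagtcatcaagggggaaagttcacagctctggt
Lama2, outer start, chr10:27616943-27617192, minus strand: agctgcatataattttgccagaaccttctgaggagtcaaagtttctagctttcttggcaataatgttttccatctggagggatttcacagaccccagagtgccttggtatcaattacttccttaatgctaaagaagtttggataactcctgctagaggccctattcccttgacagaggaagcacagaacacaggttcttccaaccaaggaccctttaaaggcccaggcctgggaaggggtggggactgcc

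The WT island over the Macrod2 sequence, with 30 CpGs, ran from chr2:140388501 to 140405000 and held 617 reads. It crossed the gene edge, so it is not counted among the islands inside the gene. Pde4b, a phosphodiesterase that breaks down cyclic AMP, had 5 CpGs in this window, under a WT island of 318 reads and a KO island of 279. Dab1, an adaptor of reelin signalling in neurons, was the exception among KO starts, with 40 CpGs under a KO island of 429 reads. Ctnna3, which encodes alpha-T-catenin, had 1 CpG in its window and Lama2, a laminin chain of muscle basement membrane, had 0. Starts covered in WT alone had a median of 12 CpGs (range 1 to 30), those in KO alone a median of 4 (range 0 to 40), and all 271 starts a median of 9. CpG number also differed with position, since all 153 outer starts had a median of 14 CpGs and all 118 internal ones a median of 6. Among the outer starts, the 12 under WT islands only had a median of 12 and the 6 under KO islands only a median of 4.5. In shorter genes the medians were 2 CpGs in WT alone, 1 in KO alone and 10 over all 19813 starts. At least 1 CpG was present in 98.2% of windows of very long genes and in 93.6% of those of shorter genes. The comparison of CpGs was chosen after the values were seen.

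Islands covered more of the very long genes in KO than in WT. Inside them lay 9.06 Mb of WT islands and 26.5 Mb of KO islands, a ratio of 2.93. Over the remaining autosomal islands the ratio was 1.75. These islands made up 6.65% of all autosomal cover in WT and 10.7% in KO. A very long gene had a median of 3 WT islands covering 27 kb, or 3.37% of its body, and of 11 KO islands covering 109 kb, or 13.1%. In WT 166 of the 215 genes held at least 1 island and in KO 191, against 8.36% and 8.27% of all 20619 autosomal protein-coding genes. Of these 20619, 18307 are under 100 kb, and a whole island fits less readily into a short gene. Among the 475 genes of 250 to 500 kb, 278 held a WT island and 302 a KO island. Both libraries had islands in 155 genes, WT alone in 11, KO alone in 36, and 13 genes had none in either list. Of all 20619 genes, 1723 held a WT island, 1705 a KO island and 2403 an island in either list. The WT and KO numbers are nearly equal there, so genes with islands in WT alone were about as many as those in KO alone. Their exact numbers were not counted.

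KO cover was at least 2-fold that of WT, and at least 10 kb, in 134 of the 215 genes (62.3%). The same rule was met by 2.98% of all autosomal protein-coding genes, and by 25.6% of the 2403 that held a whole island in either list. The opposite call, at least 2-fold more in WT, was met by 13 very long genes (6.05%), by 2.64% of all genes and by 22.6% of those with an island. Among the 475 genes of 250 to 500 kb, 26.9% were called toward KO and 14.1% toward WT. A gene without islands in 1 list counts under this rule when the other list reaches 10 kb. With the KO list reduced to the WT number, 103 genes met the rule toward KO and 33 toward WT. Direction alone put 167 genes on the KO side and 35 on the WT side.

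The KO share of bases was higher in each longer class of genes, while the WT share was highest at 250 to 500 kb. To compare genes of different length, every base of the gene body under an island was counted, also from islands that cross the edge. Genes under 100 kb had 3.45% of their bases in WT islands and 2.92% in KO islands, a ratio of 0.846. Genes of 100 to 250 kb had 4.67% and 4.98%, and those of 250 to 500 kb 5.84% and 10.1%. For 500 to 750 kb the values were 5.71% and 13.3%, for 750 kb to 1 Mb 5.21% and 14.7%, and for 1 Mb or more 4.57% and 16.5%, a ratio of 3.61. Between genes, islands covered 6.47% in WT and 12.8% in KO. Of the 55 genes of 1 Mb or more, 47 met the 2-fold rule toward KO and 1 toward WT. The ratio of 1.07 for 100 to 250 kb lay below 1 in other settings, at 0.940 when only the denser islands, those past the median reads per kb of their list, were kept, and at 0.686 when the KO list was cut to as many islands as the WT list.

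**Figure D1:**
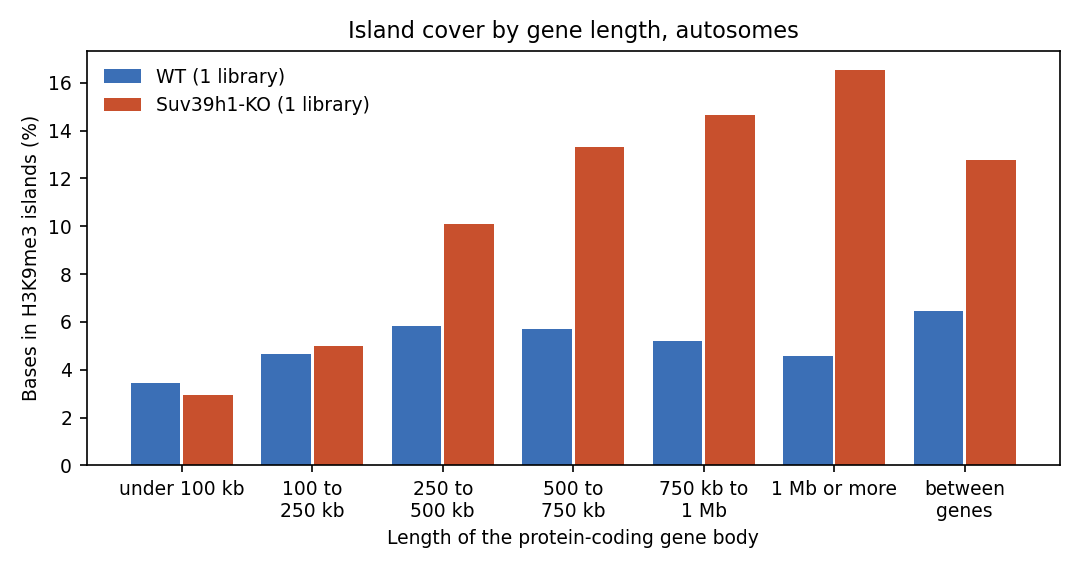
Percent of bases in H3K9me3 islands (vertical axis) for autosomal protein-coding genes grouped by body length, and for the sequence between genes; blue bars are the WT library and orange bars the KO library. KO bars climb from 2.92% in the shortest class to 16.5% in the longest, whereas WT bars stay between 3.45% and 5.84% in genes.

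The KO to WT ratio rose from shorter to longer genes whether a gene had few or many neighbours. Genes were split, after their values had been seen, by how many other protein-coding genes lay inside the body or within 500 kb of it. That stretch is wider for a longer gene, so the same number of neighbours means a lower gene density there. The classes are therefore not matched for gene density. With 0 to 4 such neighbours the KO to WT ratio was 1.94 for genes of 100 to 250 kb, 2.05 for 250 to 500 kb and 2.92 for the 105 very long genes. With 5 to 12 neighbours the ratios were 0.922, 1.62 and 3.23. With 13 or more they were 0.670, 1.32 and 1.99, the last over 18 very long genes with 9.02% cover in WT and 17.9% in KO. Among these 18, Gm37013, Gm38666 and Gm38667 are overlapping models that hold the same islands and have 88 or 89 neighbours. Bases shared by such models were counted once in these percentages. Across the 215 genes, the number of neighbours had a Spearman rho of -0.0816 with the KO share and -0.00951 with the WT share. The Pearson r had the other sign, at 0.118 with the KO share and 0.263 with the WT share.

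The mark inside a very long gene was set beside the 500 kb on each side of it. In KO the gene body was covered more densely than its flanks in 128 of 215 genes, and less densely in 84. The median was 13.3% inside and 9.52% outside. In WT 90 genes had more inside and 117 less, with medians of 3.53% and 4.30%. Among the 1622 genes of 100 to 250 kb, KO cover was higher inside in 354 genes and higher in the flanks in 1083, and among the 475 of 250 to 500 kb the counts were 179 and 263.

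Single islands were more often 10 kb or longer in WT (60.7%) than in KO (43.3%), as among other autosomal islands (54.5% and 39.6%), and were alike in read density. The median length was 10.5 kb for WT islands and 9 kb for KO islands, and the longest were 48 and 54.5 kb. Read density was 39.4 reads per kb in WT and 39.6 in KO at the median, against 40.5 and 40.1 in all other autosomal islands. Only 1% of the islands lay below 33.8 reads per kb in WT and below 33.7 in KO, and the upper quartiles were 41.6 and 41.8, so most of these islands lay little above the lowest density that was called. A stretch without an island can therefore still carry the mark. Neighbouring islands of the same gene stood a median of 53 kb apart in WT and 22 kb in KO. In 30 places a WT and a KO island began and ended within 1 kb of each other. There the median ratio of KO to WT reads per kb was 0.987, and KO was higher in 13 of the 30. Counts are not scaled to depth and the depth of the whole libraries is unknown, so genotype and library depth cannot be told apart.

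A larger share of WT than of KO islands had a partner in the other list, and the KO list is the larger one. A KO island overlapped 426 of the 802 WT islands (53.1%, exact 95% binomial interval 49.6 to 56.6), against 47.6% (46.7 to 48.6) of the other autosomal WT islands. A WT island overlapped 455 of the 2631 KO islands (17.3%, 15.9 to 18.8), against 25.7% (25.2 to 26.3) of the other KO islands. The intervals cover counting of islands only. Among the denser islands, past the median reads per kb, these shares were 31.3% for WT and 8.13% for KO, and with the KO list cut to the WT number 36.4% and 21.2%. The shared length was nearly the same from both sides, 3.13 Mb of WT and 3.12 Mb of KO islands. By bases, 34.5% of the WT length and 11.8% of the KO length were shared. Of the 155 genes with islands in both libraries, 128 had shared bases and 27 had none. This count was not made for other genes, so it has no background. Across genes the percent covered in WT and in KO had a Pearson r of 0.552 and a Spearman rho of 0.523 (n = 215 genes, which share the same 2 libraries).

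**Figure D2:**
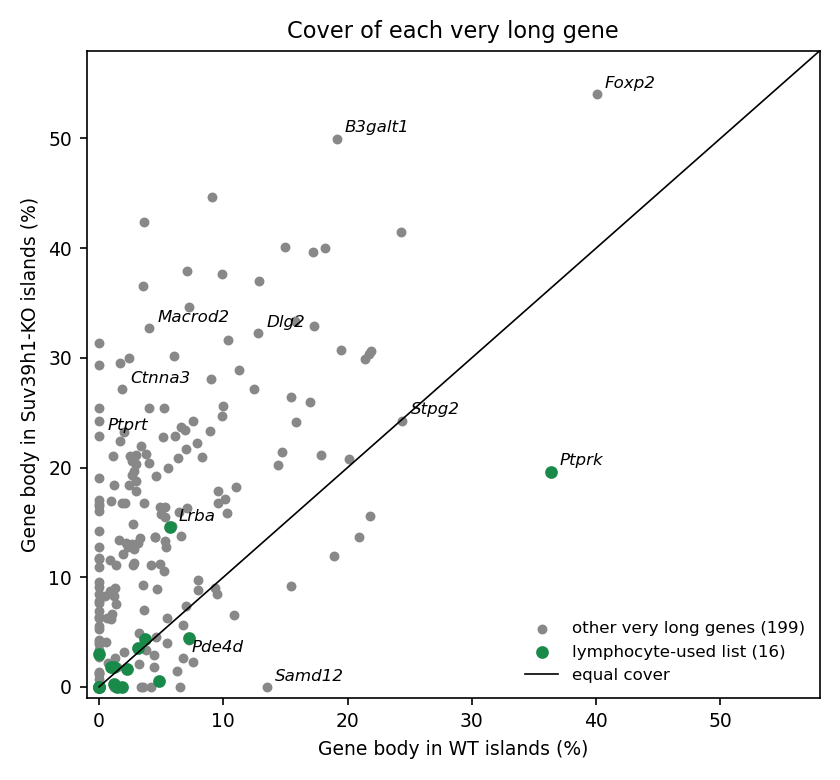
Percent of the gene body in WT islands (horizontal) against KO islands (vertical), 1 point per very long gene; green points are the 16 genes of the lymphocyte-used list and the line marks equal cover. Most points lie above the line, with Foxp2 at 40.0% and 54.0%, while Ptprk, at 36.4% and 19.6%, and Samd12, at 13.5% and 0%, lie below it.

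The longest KO cover lay over genes of very different function. Macrod2, an ADP-ribose hydrolase (chr2:140395303-142392966, mm10), carried 8 WT islands over 80 kb and 54 KO islands over 653.5 kb. In both libraries its islands crowded toward the start of the gene. The first 250 kb held 10 KO islands with 202 of the 653.5 kb, and 3 WT islands with 31.5 of the 80 kb. Dlg2, a scaffold of the postsynaptic density (chr7:90476188-92449246), had the most islands of any very long gene in both lists, 23 in WT over 252 kb and 58 in KO over 636.5 kb. The last KO island in Dlg2 ended 1585 kb from the gene start, while WT islands reached 1815 kb. Galntl6, of a family of mucin-type glycosyltransferases, carried 171 and 457.5 kb. Ctnna3 (chr10:63430098-65003667) held 3 WT islands over 29.5 kb and 42 KO islands over 427 kb, a ratio of 14.5. The netrin receptor gene Dcc had 108.5 and 413 kb, and the Slit receptor gene Robo2 81.5 and 396 kb. Epha6, an ephrin receptor, had 176 and 387.5 kb, and Cntnap2, which clusters potassium channels on axons, 109.5 and 368 kb. Erbb4, a neuregulin receptor, had 169.5 and 359 kb, and Sgcz, a sarcoglycan, 69 and 345 kb. All 10 of these met the 2-fold rule toward KO.

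By share of the body the order was different. Foxp2, a transcription factor of the developing brain (chr6:14901349-15441977), was the most densely covered in both libraries, with 14 WT islands over 216.5 kb (40.0%) and 26 KO islands over 292 kb (54.0%). Of this, 152.5 kb was common to both, so Foxp2 ranked first without meeting the 2-fold rule. B3galt1, a galactosyltransferase, had 11 WT islands over 106.5 kb and 23 KO islands over 278.5 kb. It held the KO island at chr2:67745001-67794000, with 1982 reads over 49 kb, of which 35 kb was also under WT islands. Iqcm had 9.05% and 44.7%. Syt1, the calcium sensor of synaptic vesicles, had 18.5 and 217.5 kb (42.4%), and the glutamate receptor gene Grm5 24.3% and 41.5%. The longest KO island, chr16:59722501-59777000 in Epha6, held 2256 reads over 54.5 kb.

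**Figure D3:**
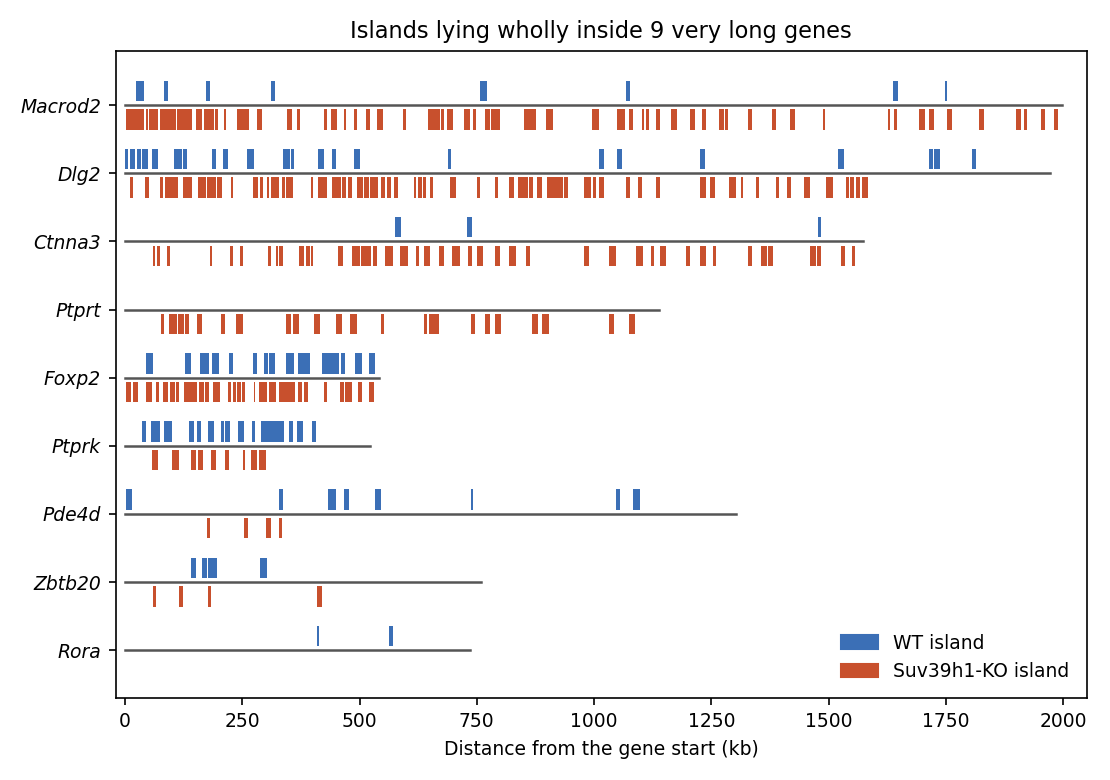
Islands lying wholly inside 9 very long genes, by distance from the gene start in kb (for Foxp2, whose strand was not listed, from its lower coordinate); grey lines are gene bodies, blue boxes above them WT islands and orange boxes below them KO islands. Macrod2, Dlg2 and Ctnna3 show 54, 58 and 42 KO islands, Ptprt 22 KO and no WT islands, and Rora 2 WT and no KO islands.

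Several very long genes, 36 in all, held whole islands in KO alone. Over all autosomal protein-coding genes, those with islands in WT alone and in KO alone were about equally many. Among the 36, Ptprt had the most, with 22 islands over 260.5 kb, of 6.50 to 22.5 kb each and spread from 76.6 to 1088 kb behind the gene start. Of these 36 genes 12 carried 100 kb or more. They included the cell-surface gene Lrrtm4, an organiser of excitatory synapses, with 112.5 kb, and Ptprm with 117 kb, both picked after their values were seen.

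In a smaller number of genes WT had more. Ptprk, a receptor phosphatase needed for the development of helper T cells (chr10:28074820-28597397), carried 14 WT islands over 190 kb (36.4%) and 9 KO islands over 102.5 kb (19.6%). It held the longest WT island, chr10:28365001-28413000, with 1964 reads over 48 kb, of which 10.5 kb was under KO islands. All islands in Ptprk ended within 408 kb of the gene start in WT and within 301 kb in KO. Among the 13 genes with at least 2-fold more in WT, the longest WT cover was in Pde4d, another phosphodiesterase of cyclic AMP, with 8 islands over 88 kb which compare with 4 over 34.5 kb for KO. Samd12 had 7 islands over 68 kb in WT alone. Adarb2, a brain homologue of RNA-editing enzymes, had 43 and 13 kb. Enox1 had 35.5 and 8 kb, the transcription factor gene Nfia 35 and 0 kb, and Vps13b, a lipid transfer protein, 27 and 3 kb. Stpg2 was even, at 123 and 122.5 kb.

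The 2 densest WT islands among the members were short. That in Rad51b, at chr12:79727001-79729500, held 164 reads over 2.5 kb, or 65.6 per kb, and the other in Malrd1, at chr2:15879501-15882500, held 176 reads over 3 kb, or 58.7 per kb. Both lay wholly under KO islands. In KO the densest was chr11:34681501-34683000 in Dock2, with 116 reads over 1.5 kb, also under a WT island, and the next was chr16:75049501-75051500 in Robo2, with 127 reads over 2 kb and no WT partner.

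Lists of related genes were drawn up, most of them for functions of neurons. Of 39 very long genes for synaptic adhesion and axon guidance, 27 had WT islands and 37 had KO islands. KO cover was at least 2-fold higher in 34 of them and WT cover in 0, with medians of 2.75% in WT and 13.4% in KO. Over all very long genes the medians were 3.37% and 13.1%, and the 2-fold rule toward KO was met by 62.3%, beside 87.2% of this list. Many of the 39 genes span 1 Mb or more. Of all 55 genes of that length 85.5% met the rule toward KO, against 50% of those of 500 to 750 kb. Examples were Negr1 (13 and 169.5 kb), Tenm3 (11.5 and 149.5 kb), Nrxn3 (21 and 146 kb) and Lsamp (58.5 and 286 kb), all of which encode neuronal cell-surface proteins. Dscam and Slit3 had no island in either list. Sdk1 was even, at 45 and 44.5 kb.

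Cadherin and catenin genes, which hold cells together, met the rule toward KO in 8 of 9 cases, with medians of 2.48% and 13.6%. This is 88.9%, beside 62.3% of all very long genes. Several of these 9 genes span 1 Mb or more, a length at which 85.5% met the rule. Pcdh15, a protocadherin of hair cells, had 38.5 and 326.5 kb. Ctnnd2 was the exception, at 47 and 34.5 kb. The 6 receptor tyrosine phosphatases included 4 that met the rule toward KO (66.7%), near the share over all very long genes. Ptprd, the longest of all 215 genes at 2271 kb, had 61.5 and 337 kb, whereas Ptprn2 had 43.5 and 49.5 kb.

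All 7 glutamate and GABA receptor genes held KO islands, at a median of 20.8% against 3.00% in WT. The rule toward KO was met by 4 of them (57.1%), near the 62.3% of all very long genes. Among those that met the 2-fold rule were Grid1 (7.50 and 129.5 kb), Grm7 (0 and 147.5 kb) and Gabrg3 (0 and 64 kb). Grm8 was covered alike, with 173 and 178.5 kb, and Grik2 had 107.5 and 184 kb.

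Of 16 ion channel genes and their partners 10 met the rule toward KO and 1, the potassium channel gene Kcnq5 (19 and 0 kb), toward WT. Dpp10, which modulates potassium channels, had 45.5 and 307 kb, and Fgf14, a partner of sodium channels, 50 and 266.5 kb. The medians of this list were 2.88% and 11.5%, and its share toward KO, 62.5%, was level with the 62.3% of all very long genes. Synaptic scaffolds and signalling genes counted 22 of 36 toward KO and 1 toward WT, with medians of 6.21% and 15.7%. This is 61.1% toward KO, also near the share over all very long genes. The list is mixed, since it also holds Sgcz, a sarcoglycan, and Galntl6, of the mucin-type glycosyltransferases. Its share is therefore not one of synaptic genes alone. The RNA-binding protein gene Celf2 had 132 and 78.5 kb, Pde4b 113.5 and 81 kb, and the kinase gene Prkg1 81 and 67.5 kb, none past the 2-fold rule.

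Genes known as common fragile sites, where chromosomes break under replication stress, counted 17 of 25 toward KO and 1 toward WT, with medians of 2.75% and 11.0%. That is 68% toward KO, beside 62.3% of all very long genes, whose KO median of 13.1% was higher. Many of the 25 genes span 1 Mb or more, a length at which 85.5% met the rule toward KO. The fragile genes differed widely. Fhit, the gene of the fragile site best known in lymphocytes, had 151 and 145 kb, and Wwox none in either list although its body spans 913 kb. Wwox, Kcnma1, Cdkal1 and Nav2 were the longest of the 13 genes without any whole island. Lists overlap, so some genes count in more than 1 of them.

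The very long genes listed as used by lymphocytes had low median cover in both libraries. This list of 16 very long genes was drawn from general knowledge, and expression was not measured here. It may leave out other genes that lymphocytes use, so its values hold for its members only. In WT 12 of them held islands and in KO 11, with medians of 1.64% and 1.68% of the body. The 2-fold rule was met toward KO by 2 and toward WT by 2, against 132 and 11 of the 199 other very long genes, whose medians were 3.53% and 13.7%. The 16 genes span 518 to 792 kb, and of all 110 genes of 500 to 750 kb, 55 met the rule toward KO and 11 toward WT. No test of the list was made. Counts toward WT in this list reached 4 with the denser islands and 6 with the reduced KO list.

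Within it, the forkhead factor gene Foxp1, Arhgap15, a regulator of Rac, and Cdk14 had no island in either list. Rora, the nuclear receptor of type 17 and innate lymphoid cells, held 2 WT islands, chr9:69062501-69068000 with 250 reads and chr9:69216001-69224000 with 320 reads, and no KO island. Elmo1, which acts with Dock2 in lymphocyte migration, had 7.50 kb in WT alone, and Dock2 itself 6.50 and 1.5 kb. Zbtb20, a zinc finger repressor of plasma cells and memory CD8 T cells, had 4 islands over 55 kb in WT and 4 over 33.5 kb in KO. Only 1 of the 4 WT islands of Zbtb20, chr16:43052501-43072500, shared bases with a KO island, 7 kb in all. Lrba, which protects CTLA-4 from degradation, went the other way, with 32 and 81.5 kb, and Zfhx3 had 0 and 20.5 kb. The phosphatase gene Inpp4b had 9.50 and 14 kb, Exoc4 of the exocyst 16 and 11.5 kb, Rabgap1l 18 and 20.5 kb, Rad51b, a DNA repair gene, 20.5 and 24 kb, and Smyd3 5.50 and 10 kb. Vps13b and Ptprk are given above. Apart from Ptprk and Lrba, no gene of this list had more than 5% of its body in KO islands.

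**Figure D4:**
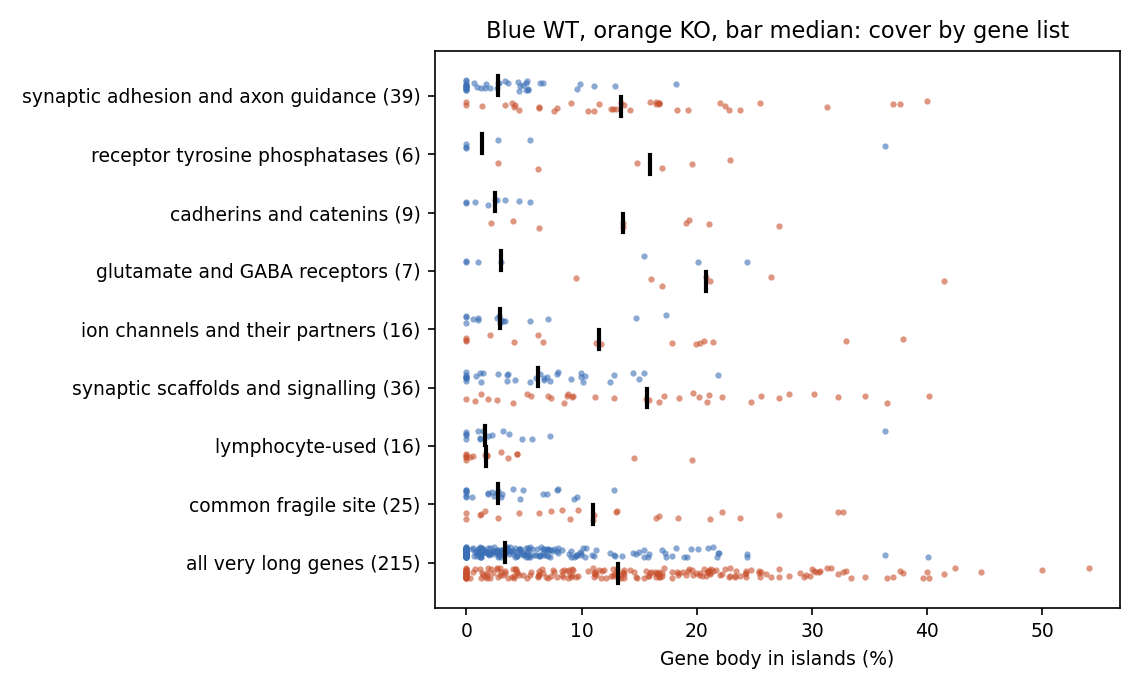
Percent of the gene body in islands (horizontal) for the very long genes of each list, with the number of genes in brackets; blue points are WT, orange points KO, black bars medians, and points are spread vertically for sight only. Apart from the lymphocyte-used list, the KO median lies well right of the WT median, as at 11.5% against 2.88% for ion channels. In the lymphocyte-used list the 2 medians are nearly level, at 1.68% for KO and 1.64% for WT.

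Position along the gene could be read for the 169 genes whose strand was listed. In WT 146 of 607 islands (24.1%, interval 20.7 to 27.7) had their midpoint in the first 20% of the gene and 112 (18.5%, 15.4 to 21.8) in the last 20%. In KO these were 390 of 1966 (19.8%, 18.1 to 21.7) and 328 (16.7%, 15.1 to 18.4). An even spread would put 20% in each, although islands that cross an edge are left out here and lower both outer shares. Counted by base, with crossing islands included, WT cover was 7.57% in the first twentieth of the gene and between 3.16% and 6.14% in the others. KO cover lay between 13.3% and 16.5% in the first 16 twentieths and between 11.4% and 12.9% in the last 4.

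In distance rather than share, KO cover was 11.3% in the first 20 kb of the gene and 17.1% at 200 to 250 kb from its start, while WT had 7.10% and 6.41%. Outside the gene, KO cover was 10.5% in the last 20 kb before the start and 10.5% in the first 20 kb behind the end. At 20 to 50 kb from the gene it was 10.3% before and 11.2% behind, and at 50 to 100 kb 11.7% and 7.77%. It was also higher before the gene in each bin from 100 to 400 kb, with 10.9% and 8.15% at 100 to 200 kb. At 400 to 500 kb it was lower before the gene, at 9.97% and 11.5%. WT had 7.37% and 3.44% in the nearest 20 kb. Stretches outside the gene can hold other genes.

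**Figure D5:**
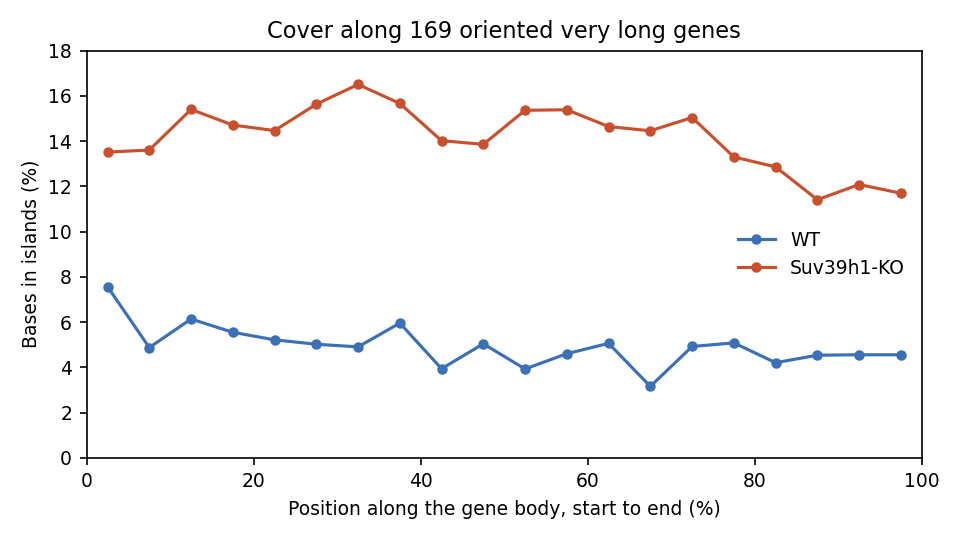
Percent of bases in islands (vertical) in each twentieth of the gene body from start to end (horizontal, % of the body), summed over 169 very long genes with a listed strand; blue is WT and orange is KO. WT is highest in the first bin at 7.57%, and KO is lowest near the end at 11.4%.

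Chromosomes differed in how far KO exceeded WT. Inside very long genes the KO to WT ratio of cover was higher than in the rest of the same chromosome on 17 of 19 autosomes. The largest ratio was 6.79 on chromosome 9, where 11 genes held 112 kb of WT islands and 760 kb of KO islands. On chromosome 13 it was 0.937, with 492 kb of WT islands and 461 kb of KO islands over 11 genes, while the rest of that chromosome had a ratio of 1.61. There Pde4d, Mctp1 (123 and 77.5 kb), Adgrv1 (58.5 and 35.5 kb) and Adarb2 were among those with more in WT, and Ryr2 (30.5 and 110.5 kb) and Edil3 (85 and 130.5 kb) more in KO. On chromosome 15 the ratio was 1.78, against 1.83 in the rest.

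Some of these islands held a microRNA gene, for which no background was computed. The hairpin of Mir6335 in B3galt1 was covered in both libraries, Mir3059 in Mgat4c in WT alone, and Mir7224, Gm51273, Mir876 and Mir691 in KO alone, inside B3galt1, Nbea, Lingo2 and Robo2. Just around the length limit, Edil3 at 501.8 kb carried 85 and 130.5 kb, and Dock1 at 503 kb none, while Dnm3 at 495.9 kb carried 50.5 and 0 kb, and Lrrc7 at 494.8 kb 93 and 258.5 kb.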

How the data were processed

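H3K9me3 islands of 2 libraries, WT and KO, were analysed, and the inputs are not analysed here. Bowtie2, SICER 1.1 and mm10 are named in the submitters' processing notes. Window, gap, threshold, duplicates and use of input were not given in the sources used here. Each deposited list gives a whole-number count per island without a header, read as ChIP reads, and these authors' counts are unscaled. Coordinates lie on a grid of 500 bp and were converted to count from 1.

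Genes came from a RefSeq table of GRCm38.p6. From it 242 genes on scaffolds, recognised by their place in the table, and 4 without coordinates were left out. Strand came from a RefSeq table of starts, which matched 169 of the 215 genes and lacked 46. Islands wholly inside a gene body were counted with Python 3.11.15 and pandas 2.3.3, and the counting was tested on simulated islands. An island in overlapping gene models was counted once in totals, with the longer gene, and leaving out models that overlap a longer one left 212 genes. The flanks, the classes by number of neighbours, the starts and the ratio by chromosome were compared as plain values. Intervals are exact (Clopper-Pearson) 95% binomial.

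Named genes were the 10 with the longest KO cover, the 5 with the highest KO and the 3 with the highest WT share, the 6 with the longest WT cover among those at least 2-fold toward WT, the 4 longest without islands, and the lymphocyte list, plus the 2 longest and 2 densest islands of each library. List members given as examples, and genes of chromosome 13, were chosen after their values were seen. The members, lists and rules were chosen with earlier results of these data known. Genome sequence, exons and introns were not used here.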

Additional observations from a re-analysis of the deposited data

How the results depend on the processing

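No paired analysis was possible because 1 H3K9me3 library stands for WT and 1 for KO. The excess of KO cover held in each of these settings, with a ratio of 1.97 when the KO list was reduced to the WT number (keeping the islands with most reads) and 3.65 with islands denser than the median reads per kb, against 2.93. Over all settings 92 values stayed within 1.5 times of the count or ratio, or within the interval of the share, 21 moved further and 2 ratios crossed 1. Among the 105 genes of 750 kb or longer, 79 met the 2-fold rule toward KO and 2 toward WT. Of these 105, 69 had more KO cover inside than in flanks, and 14.9% of KO islands were overlapped. Of the lymphocyte list only Inpp4b and Zbtb20 are that long. Neither met the rule in the main setting, so the counts of 0 and 0 there, listed among the 21, followed from the length cut. With genes of 400 kb or longer, 31 met the rule toward WT and 19.1% of KO islands were overlapped. Above the median of reads per kb, 31.3% of WT and 8.13% of KO islands were overlapped, 28.1% of WT islands lay in the first 20% of the gene, the ratio in genes of 100 to 250 kb reversed to 0.940, and 1 lymphocyte gene met the rule toward KO and 4 toward WT. With the reduced KO list, where KO cover can only fall, 103 genes met the rule toward KO and 33 toward WT, and 6 lymphocyte genes toward WT. There 36.4% of WT and 21.2% of KO islands were overlapped, and the ratios were 0.529 in genes under 100 kb and, reversed, 0.686 in genes of 100 to 250 kb. When at least 50% of an island had to be shared, 37.5% of WT and 11.8% of KO islands were overlapped. At 3-fold 1 lymphocyte gene met the rule toward KO. Settings for length classes, for the lymphocyte list and for named genes, and one without overlapping gene models, were chosen after the data were seen. Of the named genes, 0 changed direction after a call, while 12 values lost and 10 gained a call. Depth of the libraries is not known and limits all of these.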
